A study of Mus musculus with 20 samples.

Results

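Quinone, carbonyl and aldo-keto reductases are enzymes that use NADPH, or a related nucleotide, to reduce reactive carbonyl groups and quinones to less reactive alcohols and hydroquinones. The 10 genes described here were listed by name (Nqo1, Nqo2, Cbr1, Cbr3, Dcxr, Akr1a1, Akr1b7, Akr1b8, Akr7a5 and Htatip2), and each was found as 1 row of the deposited expression table, which holds 49315 genes. Their transcripts were measured by polyA RNA sequencing of liver from 20 obese mice with diet-induced steatohepatitis (DIO-NASH), all kept on the AMLN diet, which is rich in fat, fructose and cholesterol. Of these mice, 10 were given vehicle (HEC, hydroxyethylcellulose, 1%) and 10 were dosed orally with 30 mg/kg of S217879 each day. Dosing lasted 8 weeks in both groups, with 1 library per separately numbered animal. Strain, sex and age were not given in the sources used here. Every animal of both groups carried the diet-induced disease, so no healthy liver stands beside them.

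The series title describes S217879 as a selective disruptor of the interaction between NRF2 and KEAP1. As background, KEAP1 marks NRF2 for degradation in resting cells. When this binding is blocked, NRF2 accumulates and binds antioxidant response elements, short DNA motifs near genes of detoxification and NADPH supply. In liver, NQO1 and the carbonyl reductases are widely used readouts of this pathway, and the aldo-keto reductases clear lipid-derived aldehydes and sugar intermediates in hepatocytes.

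Values are in TPM, which scale reads for gene length and for each library's total, so levels can be set side by side between genes, but sequencing depth cannot be read from them. Groups were compared with limma on log2(TPM + 0.5) over the 13401 genes whose mean reached 1 TPM, and a gene is said to have risen or fallen where its Benjamini-Hochberg adjusted p was under 0.05. Vehicle replicates 6 and 7 stood apart, with 58.2% and 50.7% of their TPM in 4 rRNA-type gene models, against 17.4% to 31.4% in the other vehicle livers and 14.1% to 38.1% with S217879. A larger share for these models leaves a smaller one for all other genes, and vehicle replicate 6 had the lowest deposited value of its group for 8 of the 10 reductases. Results are therefore also given after median-of-ratios scaling, which removes 1 factor per library, and after rescaling without the 4 rRNA-type models. The median log2 difference of all genes was -0.12 as deposited, and these scalings moved it by 0.11 and -0.14.

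All 10 reductases passed the minimum, and 8 rose and 0 fell, beside 6.07% of all tested genes higher and 23.5% lower. Their median log2 difference was 0.69. The 8 also rose with median-of-ratios scaling, where 26.6% of all genes were higher and 27.1% lower, and without the rRNA-type models, where 7.54% were higher and 64.0% lower. The genes fell into 3 tiers by size of the difference: Cbr3, Cbr1, Nqo1 and Htatip2 rose by more than 1.5 on the log2 scale, Dcxr, Akr1b7, Akr1a1 and Akr7a5 by less than 1, and Nqo2 and Akr1b8 did not pass the test. For the first 4 the groups did not overlap in the deposited values, which held for 1.84% of all genes in this direction. In whole liver, a change in RNA per cell and a change in the number of cells that hold the transcript cannot be told apart.

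**Figure D1:**
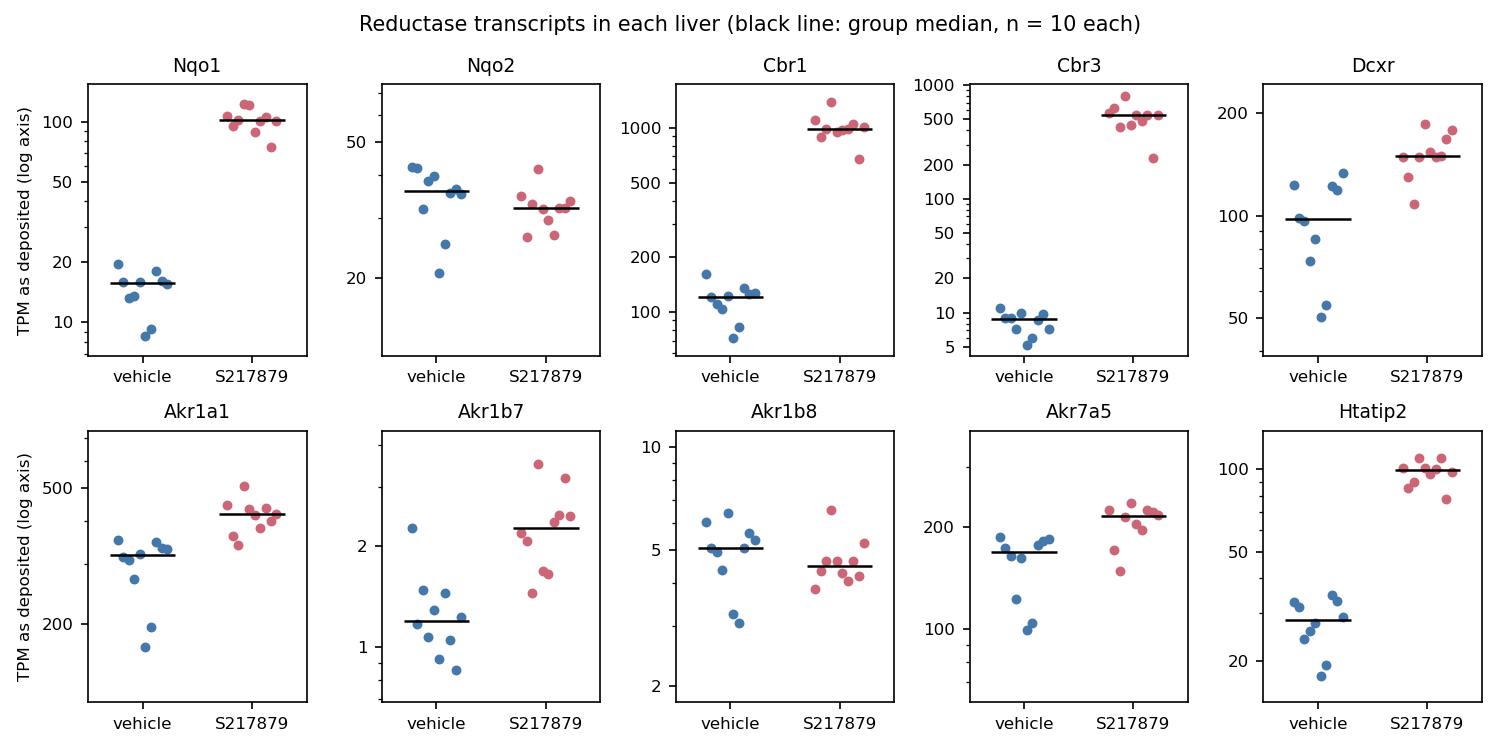
Deposited TPM of each reductase in each liver (log axes, each panel with its own range), vehicle in blue and S217879 in red, 1 point per liver and the group median as a black line. The groups are separate for Nqo1, Cbr1, Cbr3 and Htatip2 and overlap for the other 6 genes, and vehicle replicates 6 and 7 are the low blue points of most panels.

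The 4 genes whose groups were separate are shown with the DNA just before a RefSeq transcription start, since a motif bound by NRF2 would be looked for there first. RefSeq gave windows of 300 bases (250 before the start and 50 after it, GRCm38.p6) for all 10 genes, 2 windows each for Nqo2 and Htatip2 and 1 for the others. The stretches are written 5′ to 3′ on the strand of the gene, without the bases that lie in annotated exons. Those of Nqo1 and Cbr3 lie just before the annotated gene, and those of Cbr1 and Htatip2 lie in introns of longer gene models. Capitals, present in the Htatip2 stretch alone, mark a match to the core of the antioxidant response element, searched as TGACNNNGC on both strands.
Nqo1, chr8:107403207-107403455, minus strand: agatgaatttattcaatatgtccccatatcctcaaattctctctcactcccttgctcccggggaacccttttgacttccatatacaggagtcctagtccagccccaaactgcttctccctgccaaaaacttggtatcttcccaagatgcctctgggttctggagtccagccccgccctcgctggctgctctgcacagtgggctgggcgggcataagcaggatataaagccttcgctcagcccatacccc
Cbr1, chr16:93607587-93607836, plus strand: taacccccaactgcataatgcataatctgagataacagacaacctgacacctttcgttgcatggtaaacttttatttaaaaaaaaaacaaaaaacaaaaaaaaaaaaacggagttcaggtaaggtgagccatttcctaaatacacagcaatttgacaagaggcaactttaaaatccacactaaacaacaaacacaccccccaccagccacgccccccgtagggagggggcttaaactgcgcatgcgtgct
Cbr3, chr16:93682969-93683214, plus strand: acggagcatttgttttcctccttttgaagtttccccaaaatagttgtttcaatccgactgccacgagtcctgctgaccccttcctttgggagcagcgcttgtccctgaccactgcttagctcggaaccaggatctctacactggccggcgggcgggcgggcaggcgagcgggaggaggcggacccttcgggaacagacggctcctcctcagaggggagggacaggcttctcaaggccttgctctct
Htatip2, second window, chr7:49759312-49759511, plus strand: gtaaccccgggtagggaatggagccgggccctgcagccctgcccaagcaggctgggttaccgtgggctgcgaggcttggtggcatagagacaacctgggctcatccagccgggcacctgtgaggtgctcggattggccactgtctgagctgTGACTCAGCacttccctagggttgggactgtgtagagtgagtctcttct

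Of the 10 genes, Htatip2 alone held TGACNNNGC in its windows, with TGACTCAGC at 7:49759463-49759471, 49 bases before the second start, and GCGCTGTCA on the reverse complement, 11 bases after the first start. The same letters were in 12.4% of all 32851 RefSeq windows and in at least 1 window of 13.99% of 27025 genes. The variant TGAGNNNGC was found for Akr1b7 alone, as GCTCACTCA on the reverse complement 19 bases after the start, and 17.6% of all windows held it. The Htatip2 match TGACTCAGC also contains TGACTCA, the letters bound by AP-1 factors. For the other 8 genes, including Nqo1, Cbr1 and Cbr3, these letters are not in these windows, which says nothing of more distant elements.

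The carbonyl reductases Cbr1 and Cbr3 are short-chain dehydrogenases that reduce quinones, prostaglandins and anthracycline drugs. Cbr3 (ENSMUSG00000022947, GRCm38 16:93683215-93690990, plus strand, 4 merged exons) was at 5.20, 8.78 and 10.9 TPM in vehicle (lowest, median, highest) and at 228, 548 and 809 TPM with S217879. The lowest treated liver, S217879 replicate 9, was thus 20.96 times the highest vehicle liver. The log2 difference was 5.87 (SE 0.16), or 58.7-fold, with an adjusted p of 1.69e-23 by limma, and it ranked 2 among all 13401 genes. Cbr1 (ENSMUSG00000051483, 16:93605853-93610505, plus strand, 6 merged exons) was at 72.2, 121 and 161 TPM in vehicle and at 679, 985 and 1375 TPM with S217879. Every treated liver was above every vehicle liver, and the lowest of them was again replicate 9. Its log2 difference was 3.12 (SE 0.14), or 8.68-fold (adjusted p = 2.30e-21), and ranked 17 among all tested genes.

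Cbr1 and Cbr3 lie on the same strand of chromosome 16, 72709 bases apart, and their coding sequences were identical at 77.8% of 829 aligned bases. Only 1 of 1121 windows of 50 bases in the Cbr3 transcript of longest coding sequence occurred in another gene, and that gene was Cbr1. Of the Cbr1 windows, 4.12% occurred in other genes, almost all in the model Gm5678, which was below 1 TPM in every liver. Although the genes are neighbours, they moved by different amounts. The ratio of Cbr3 to Cbr1 within a liver, which does not depend on the library's scale, was 0.0561, 0.0717 and 0.0815 in vehicle (lowest, median, highest) and 0.336, 0.518 and 0.699 with S217879. All 10 treated ratios exceeded all vehicle ratios. The mean log2 ratio, taken with 0.5 TPM added to each gene, differed by 2.76 (SE 0.10, p = 6.00e-05, adjusted p = 1.20e-04 over 4 ratios, permutation test of 100000 resamples, two-sided).

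Nqo1 and Nqo2 encode flavin enzymes that reduce quinones to hydroquinones in a single step without a semiquinone. NQO1 takes its electrons from NADH or NADPH, whereas NQO2 uses dihydronicotinamide riboside. Nqo1 (ENSMUSG00000003849, GRCm38 8:107388225-107403206, minus strand, 6 merged exons) was at 8.51, 15.7 and 19.6 TPM in vehicle and 74.9, 102 and 122 TPM with S217879. The lowest treated liver was at 3.82 times the highest vehicle liver. The log2 difference was 2.79 (SE 0.13, adjusted p = 1.06e-20), rank 21 of all tested genes.

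Nqo2 (ENSMUSG00000046949, 13:33964687-33988443, plus strand, 10 merged exons) was at 20.6, 36.0 and 42.3 TPM in vehicle and 26.4, 32.1 and 41.7 TPM with S217879, so that the treated range lay inside the vehicle range. Its log2 difference was -0.09 (95% interval -0.34 to 0.16, adjusted p = 0.617). The sign depended on the scale: it was 0.02 with median-of-ratios scaling (adjusted p = 0.719) and -0.23 without the rRNA-type models (adjusted p = 4.70e-04), a call also made with array weights (-0.19, adjusted p = 0.00943) and without vehicle replicates 6 and 7 (-0.23, adjusted p = 0.0152). Relative to the median of all genes on the same scale, the difference was 0.03, 0.04 and 0.02 under the 3 scalings. Nqo2 lies within Serpinb6a, on the opposite strand, with 762 exonic bases in common. Serpinb6a was at 10.2 ± 1.76 TPM in vehicle and 6.74 ± 1.18 TPM with S217879 (SD, n = 10 each). The library kit keeps strand, but its use in counting was not given in the sources used here, and reads of these genes may not be fully separated.

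In vehicle livers Nqo2 was above Nqo1 in every animal, with a ratio of Nqo1 to Nqo2 of 0.350, 0.413 and 0.504. With S217879 the order was the other way in every animal, with ratios of 2.33, 3.09 and 3.79. The mean log2 ratio differed by 2.88 (SE 0.08, adjusted p = 1.20e-04, permutation test, two-sided). The coding sequences of these genes were identical at 58.8% of 690 aligned bases, and none of their 50-base windows occurred in another gene (0 each).

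**Figure D2:**
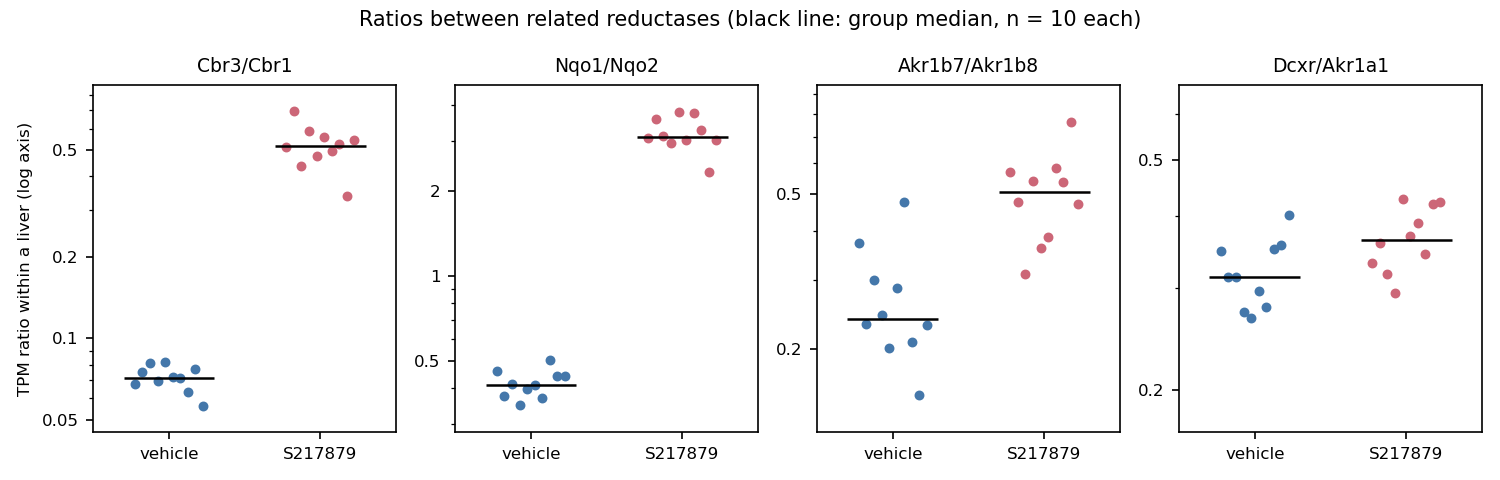
Within-liver TPM ratios (log axes, each panel with its own range) of Cbr3 to Cbr1, Nqo1 to Nqo2, Akr1b7 to Akr1b8 and Dcxr to Akr1a1, 1 point per liver, vehicle in blue and S217879 in red, with the group median as a black line. The first 2 ratios do not overlap between groups, with medians of 0.0717 against 0.518 and 0.413 against 3.09, while the other 2 overlap.

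Htatip2 encodes an NADPH-binding protein with the fold of the short-chain dehydrogenases, also known as TIP30, that has been studied as a tumour suppressor. Htatip2 (ENSMUSG00000039745, GRCm38 7:49759115-49773975, plus strand, 6 merged exons) was at 17.7, 28.2 and 34.7 TPM in vehicle and 77.6, 99.0 and 110 TPM with S217879. Again every treated liver was above every vehicle liver, by at least 2.24 times. The log2 difference was 1.82 (SE 0.12, adjusted p = 1.57e-15), rank 64. With S217879 its level was close to that of Nqo1, and Nqo1 was the higher of the pair in 6 of 10 livers.

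Dcxr and Akr1a1 act on separate steps of sugar acid metabolism. AKR1A1, aldehyde reductase, reduces glucuronate to gulonate, which in mice leads to ascorbate, and DCXR reduces L-xylulose, further along the glucuronate-xylulose branch, as well as dicarbonyl compounds. Akr1a1 (ENSMUSG00000028692, GRCm38 4:116636510-116651680, minus strand, 8 merged exons) was the most abundant of the 10 in vehicle, at 170, 317 and 352 TPM, and was at 341, 419 and 507 TPM with S217879. The groups overlapped by 1 treated liver, S217879 replicate 3, which lay below the highest vehicle liver. The log2 difference was 0.52 (SE 0.13, adjusted p = 0.00246). After median-of-ratios scaling the groups were separate, at 249 to 301 and 373 to 473, with a log2 difference of 0.64 (SE 0.05). Without the rRNA-type models they were also separate, at 393 to 447 and 449 to 595, but the log2 difference was smaller, at 0.38 (SE 0.05).

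Dcxr (ENSMUSG00000039450, 11:120725399-120727281, minus strand, 6 merged exons) was at 50.6, 97.5 and 133 TPM in vehicle and 108, 149 and 186 TPM with S217879. All 10 treated livers exceeded the vehicle median and 8 exceeded the highest vehicle liver. Its log2 difference was 0.72 (SE 0.15, adjusted p = 2.99e-04), and 0.84 (SE 0.10) after median-of-ratios scaling, where the groups were separate. Without the rRNA-type models it was 0.58 (SE 0.09), and the groups overlapped, at 107 to 171 in vehicle and 143 to 238 with S217879. The ratio of Dcxr to Akr1a1 was 0.267 to 0.402 in vehicle and 0.294 to 0.428 with S217879, a log2 difference of 0.20 (SE 0.08, adjusted p = 0.0303, permutation test, two-sided). This call was lost without any of vehicle replicates 4, 5, 6 and 7 or S217879 replicates 5, 7, 9 and 10 (adjusted p from 0.0502 to 0.0599) and without vehicle replicates 6 and 7 together (adjusted p = 0.0920).

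Akr7a5 encodes an aflatoxin aldehyde reductase that also reduces succinic semialdehyde. Akr7a5 (ENSMUSG00000028743, GRCm38 4:139310744-139318426, plus strand, 7 merged exons) was at 99.5, 168 and 187 TPM in vehicle and 148, 215 and 234 TPM with S217879, with 9 of 10 treated livers above the vehicle median. It was the smallest of the 8 rises, with a log2 difference of 0.42 (SE 0.13, adjusted p = 0.0133). After median-of-ratios scaling the difference was 0.54 (SE 0.07) and the groups were separate, so that 7 of the 10 genes had separate groups on that scale, beside 7.54% of all genes in this direction. Without the rRNA-type models the Akr7a5 difference was 0.28 (SE 0.07), and its groups overlapped, at 179 to 238 in vehicle and 195 to 300 with S217879.

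Akr1b7 and Akr1b8 encode aldose-reductase-like enzymes that reduce lipid-derived aldehydes, and both were scarce in these livers. Akr1b7 (ENSMUSG00000052131, GRCm38 6:34412334-34423142, plus strand, 10 merged exons) was at 0.857, 1.199 and 2.26 TPM in vehicle and 1.45, 2.27 and 3.52 TPM with S217879. All 10 treated livers were above the vehicle median but only 5 were above vehicle replicate 1, the highest of its group. The log2 difference was 0.65 (SE 0.13, adjusted p = 9.26e-05), which the pseudocount of 0.5 understates at this level. Akr1b8 (ENSMUSG00000029762, 6:34354119-34368463, plus strand, 10 merged exons) was at 3.05, 5.06 and 6.42 TPM in vehicle and 3.85, 4.50 and 6.54 TPM with S217879.

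The Akr1b8 groups covered almost the same range, and the log2 difference was -0.06 (95% interval -0.29 to 0.18, adjusted p = 0.752). It was 0.05 with median-of-ratios scaling (adjusted p = 0.521) and 0.13 with quantile normalization (adjusted p = 0.109), but -0.19 without the rRNA-type models (adjusted p = 0.0180) and -0.23 with array weights (adjusted p = 0.00699). Relative to the median of all genes it was 0.06 under each of the 3 scalings. The ratio of Akr1b7 to Akr1b8 was 0.153, 0.238 and 0.475 in vehicle and 0.312, 0.506 and 0.761 with S217879. Every treated ratio was above the vehicle median. The mean log2 ratio, taken with 0.5 TPM added to each gene, differed by 0.71 (SE 0.15, adjusted p = 6.13e-04, permutation test, two-sided). Over the alternatives this difference ran from 0.58 to 0.86. These genes lie 43870 bases apart and their coding sequences were identical at 84.8% of 948 bases, with 2.52% of Akr1b7 and 3.21% of Akr1b8 windows of 50 bases found in other genes. How reads shared between near copies were assigned was not given in the sources used here, which makes their single values less certain. The share of such windows was larger for Cbr1, at 4.12%. Gm13857, a pseudogene model on the opposite strand of Akr1b7, was near 0 (0.005 ± 0.008 TPM in vehicle and 0.003 ± 0.005 TPM with S217879, SD, n = 10 each).

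**Figure D3:**
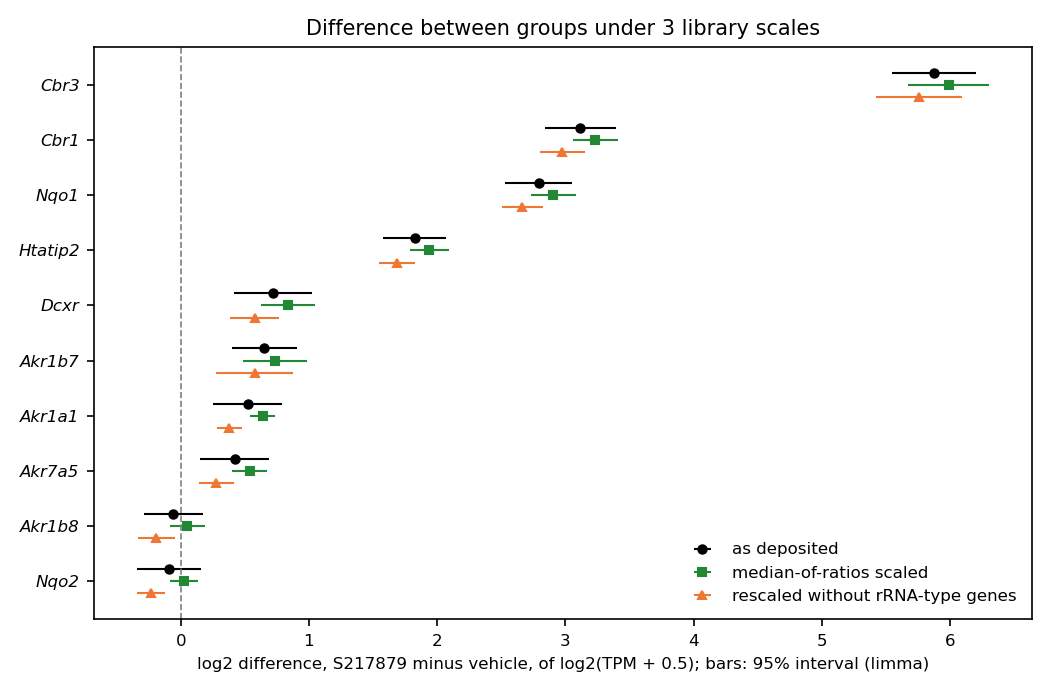
Log2 difference between groups (S217879 minus vehicle, limma on log2(TPM + 0.5)) for the 10 reductases under 3 library scales, with 95% intervals as bars. The 8 genes that rose lie to the right of 0 under each scale, and Nqo2 and Akr1b8 lie on different sides of 0 depending on the scale.

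The order of levels within a liver changed with treatment. In vehicle the means ran from Akr1a1 (294 ± 63.2 TPM) through Akr7a5 (155 ± 33.6), Cbr1 (116 ± 25.4), Dcxr (95.6 ± 29.2), Nqo2 (34.8 ± 7.12), Htatip2 (27.5 ± 5.83), Nqo1 (14.6 ± 3.52), Cbr3 (8.25 ± 1.83) and Akr1b8 (4.91 ± 1.10) to Akr1b7 (1.28 ± 0.40, SD, n = 10 each). Ranges of neighbours in that order overlapped except between Dcxr and Nqo2 and between Akr1b8 and Akr1b7, although within each liver the higher gene of a neighbouring pair was higher in 10 of 10 livers, or in 9 for Cbr1 and Dcxr. With S217879, Cbr1 (1001 ± 174 TPM) and Cbr3 (524 ± 149) led, followed by Akr1a1 (414 ± 47.0), Akr7a5 (205 ± 26.9), Dcxr (152 ± 22.3), Nqo1 (102 ± 13.9), Htatip2 (97.0 ± 10.2), Nqo2 (32.2 ± 4.34), Akr1b8 (4.64 ± 0.77) and Akr1b7 (2.31 ± 0.66). Cbr3 was above Akr1a1 in 9 of 10 treated livers, so their ranges overlapped, and the levels of Nqo1 and Htatip2 did not differ beyond their spread. Ranges of neighbours were separate between Akr1a1 and Akr7a5, Htatip2 and Nqo2, Nqo2 and Akr1b8, and Akr1b8 and Akr1b7.

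Summed over the 10 genes, reductase transcripts were at 753 ± 165 TPM in vehicle and 2534 ± 372 TPM with S217879 (SD, n = 10 each). Cbr1 and Cbr3 together made up 16.6% ± 0.94 of that sum in vehicle and 59.7% ± 4.87 with S217879. The other 8 genes summed to 628 ± 139 and 1009 ± 102 TPM.

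S217879 replicate 9 had the lowest value of its group for Nqo1, Cbr1, Cbr3 and Htatip2 under all 3 scalings. It was also the lowest for Nqo2 and Akr1a1 with median-of-ratios scaling and for Akr1b8 without the rRNA-type models, and was not the lowest for Dcxr, Akr7a5 or Akr1b7 under any of the 3. Cbr3 without this liver had a log2 difference of 6.0. Relations between members within groups were computed after median-of-ratios scaling. None of 8 relations (Nqo1 with Cbr3, Cbr1 with Cbr3, Nqo1 with Nqo2, and Akr1b7 with Akr1b8, each within vehicle and within S217879, n = 10) passed the Benjamini-Hochberg adjustment (adjusted p from 0.174 to 0.999, permutation tests, two-sided). The closest was Cbr1 with Cbr3 among treated livers (Pearson's r = 0.91, adjusted p = 0.174, Spearman's rho = 0.60, adjusted p = 0.592, permutation tests), and without replicates 4 and 9, the livers farthest from the median, r was 0.01. Among treated livers r was 0.70 for Nqo1 with Cbr3 and 0.57 for Nqo1 with Nqo2, and without the 2 farthest livers it was 0.04 and 0.38. In the deposited values, where all genes of a library share its scale, r was 0.88 for Nqo1 with Cbr3, 0.88 for Cbr1 with Cbr3 and 0.91 for Nqo1 with Nqo2 in vehicle (adjusted p = 0.00352 each, permutation tests).

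Enzymes related to these reductases were counted in 3 lists chosen by function. Of 13 other aldo-keto reductases 10 were tested, and 5 rose and 1 fell, beside 6.07% of all genes higher and 23.5% lower, with a median log2 difference of 0.44. Akr1c19, of the AKR1C subfamily that acts on steroids and other carbonyls, rose from 44.1 ± 13.7 to 178 ± 31.0 TPM (log2 difference 2.05, SE 0.17, SD with n = 10 each). Akr1d1, the steroid 5-beta-reductase of bile acid synthesis, rose from 71.0 ± 20.1 to 137 ± 13.05 TPM. Akr1b10, a close relative of Akr1b7 (89.2% coding identity) and Akr1b8 (84.7%), fell from 2.11 ± 0.37 to 1.57 ± 0.26 TPM. The count that fell was 3 after median-of-ratios scaling, without the rRNA-type models and without any of vehicle replicates 6 and 7 or S217879 replicate 4. Over all genes, 27.1% were lower in the first of these settings and 64.0% in the second. The 3 of 10 tested is thus near the share over all genes in the first and below it in the second.

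Of 22 other carbonyl and quinone reductases, 21 were in the table and 20 were tested. Of these, 1 rose and 2 fell, beside 6.07% of all genes higher and 23.5% lower. Their median log2 difference was -0.03, beside -0.12 for all genes. Hsd11b1, the reductase that regenerates active glucocorticoid, was the 1 that rose, from 110 ± 33.3 to 160 ± 15.02 TPM. Dhrs9 (2.65 ± 0.65 to 1.99 ± 0.51 TPM) and Ptgr1 (4.50 ± 0.88 to 3.56 ± 0.84 TPM) fell, but the Dhrs9 call was lost in 13 and the Ptgr1 call in 16 of 30 alternatives. With median-of-ratios scaling 6 of the 20 rose, where 26.6% of all genes were higher, and without the rRNA-type models 10 of the 20 fell, where 64.0% of all genes were lower, so the first count is near the share over all genes and the second is below it.

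The glucuronate-xylulose and ascorbate list of 8 genes, which holds the steps around Akr1a1 and Dcxr, had 7 tested members, of which 3 rose and 2 fell, beside 6.07% of all genes higher and 23.5% lower, with a median log2 difference of 0.23. The 2 of 7 that fell are near the share over all genes. Ugdh, which makes UDP-glucuronate, rose from 63.7 ± 13.1 to 232 ± 36.2 TPM (log2 difference 1.87, SE 0.13). Cryl1, gulonate dehydrogenase, which leads from gulonate toward L-xylulose, rose from 21.003 ± 8.11 to 62.3 ± 7.86 TPM. Gulo, the last enzyme of ascorbate synthesis, fell from 369 ± 73.4 to 210 ± 31.5 TPM (log2 difference -0.80, SE 0.13), and Rgn, the gulonolactonase before it, fell from 859 ± 207 to 574 ± 132 TPM. These 4 calls kept their direction and their side of the threshold in all 31 alternatives. Sord and Xylb, which act further along the xylulose branch and are named here after their values were seen, did not pass the test (log2 differences of 0.23 and 0.10, adjusted p = 0.242 and 0.607 by limma). Both were called higher with median-of-ratios scaling (0.35 and 0.21, adjusted p = 1.60e-04 and 6.47e-04 by limma), where 26.6% of all genes were higher. Without the rRNA-type models neither passed (0.09 and -0.05, adjusted p = 0.162 and 0.368 by limma).

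**Figure D4:**
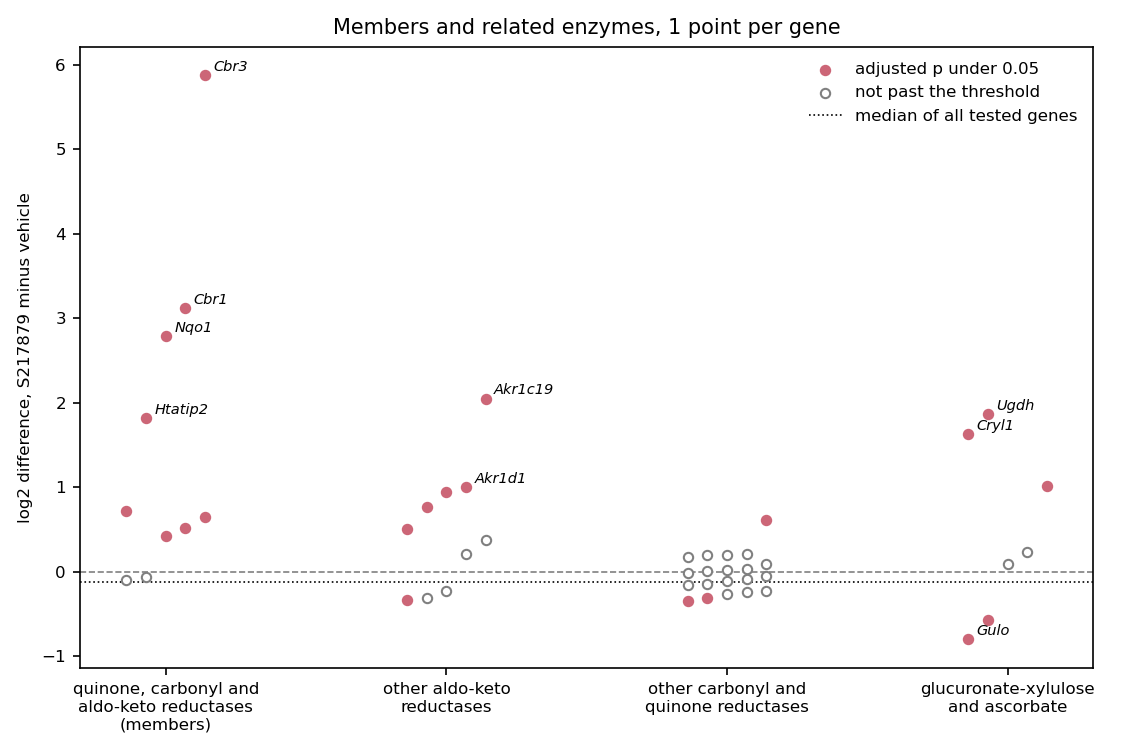
Log2 difference (S217879 minus vehicle) of each tested gene of the 10 reductases and of 3 lists of related enzymes, 1 point per gene, filled where the adjusted p was under 0.05, with the median of all tested genes (-0.12) as a dotted line. The 4 largest rises are Cbr3, Cbr1, Nqo1 and Akr1c19, and most points of the other carbonyl and quinone reductases are open and near 0.

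Markers of liver cell types were read in the same fit, where 6.07% of all genes were higher and 23.5% lower. Of 6 hepatocyte markers 1 rose and 1 fell, and their summed level was 27889 to 64459 TPM in vehicle and 36220 to 55188 TPM with S217879. Of macrophage markers 4 of 5 fell (146 to 302 and 118 to 234 TPM summed), of stellate markers 5 of 5 fell (206 to 381 and 167 to 320 TPM) and of cholangiocyte markers 2 of 4 tested fell (178 to 466 and 89.4 to 243 TPM). Of endothelial markers 2 of 4 rose (34.3 to 67.1 and 59.8 to 80.1 TPM), and of lymphocyte markers 0 of 2 tested changed (4.80 to 20.6 and 3.96 to 10.4 TPM). The adipocyte markers Adipoq, Plin1 and Lep were under 0.1 TPM in every liver, while Cfd rose (4.43 to 39.2 and 43.5 to 219 TPM summed over the 4 markers). The part of these shifts in the reductase results was not tested.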

How the data were processed

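Liver RNA of 10 vehicle and 10 S217879 mice was compared, grouped by the treatment label. Per the labels' protocols, a lipid tissue kit gave the RNA and a stranded polyA kit the libraries. The build was GRCm38 and the tools were STAR 2.5.2b, Trimmomatic 0.36, Subread 1.5.2 and featureCounts, per the submitters' processing notes. Annotation, use of strand and handling of shared reads were not given in the sources used here. Deposited signal values are TPM made by the authors, and each library sums to 1000000, so depth is unknown, no counting interval was given and precision is the spread between animals. Columns were matched to samples by animal number. No pair of libraries was identical (0), and no animal number is shared between groups. Symbols were found for 48970 gene identifiers.

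The test was limma 3.58.1 under R 4.3.3 (eBayes with trend and robust) on log2(TPM + 0.5) for the 13401 genes whose mean reached 1 TPM, with Benjamini-Hochberg adjustment over all of them and a threshold of 0.05. Ratios and correlations were tested by permutation (100000 resamples, scipy 1.17.1), with the tested log2 ratios taken from log2(TPM + 0.5) of each gene. Steps across genes were tested on simulated data. Alternatives were pseudocounts of 0.1 and 1, no minimum or one of 5 TPM, median-of-ratios, quantile and rRNA-free scaling (without Gm23935, Gm24270, Gm42418 and Mir6236), array weights, the Wilcoxon rank-sum test, each library left out, and vehicle replicates 6 and 7 left out. Median-of-ratios scaling together with leaving out both was chosen after seeing the data. Coordinates and overlaps are from GENCODE M21 (GRCm38), and promoter windows from RefSeq (GRCm38.p6). The members, lists and tests were chosen with earlier results of these data known. Named are all members, of each list the 2 largest rises and the 2 largest falls among called genes, and gene models next to or overlapping a member. Gm5678 was named after its values were seen.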

Additional observations from a re-analysis of the deposited data

Results flagged for a closer look

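In a screen of 28 groups of 10 values (each member and each ratio in each group), 2 held a value that lay apart from the rest by Dixon's criterion for 10 values, and about 1 in 20 groups is expected to do so by chance. Akr1b7 was at 2.26 TPM in vehicle replicate 1, while the other vehicle livers were between 0.857 and 1.48 TPM. Without this liver the Akr1b7 difference was still past the threshold. Akr1b8 was at 6.54 TPM in S217879 replicate 4, while the other treated livers were between 3.85 and 5.24 TPM.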

How the results depend on the processing

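The 8 reductases that rose kept their direction and their adjusted p under 0.05 in every alternative that tested them (31 for each, and 30 for Akr1b7, which is not tested at a minimum of 5 TPM). The count of members that fell was 0 as deposited. It was 2 without the rRNA-type models, 2 with array weights and 1 without vehicle replicates 6 and 7. In the first of these settings 64.0% of all genes were lower. In the others 8023 and 7303 genes were lower, where 13401 were tested as deposited. The 2, 2 and 1 of 10 members are thus below the share over all genes in each setting. Nqo2 turned to 0.024 with median-of-ratios scaling and 0.0069 when vehicle replicates 6 and 7 were also left out, and Akr1b8 to 0.051 and 0.029 in the same settings and 0.13 with quantile normalization. Over all genes, 3561 were higher with median-of-ratios scaling, 3536 with quantile normalization and 3231 with median-of-ratios scaling and without vehicle replicates 6 and 7, in place of 813. Genes that were lower numbered 1642 at a minimum of 5 TPM, 8576 without the rRNA-type models, 8023 with array weights and 7303 without vehicle replicates 6 and 7, in place of 3151, and 2656 to 5195 with each library left out (the highest without vehicle replicate 6).

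Other aldo-keto reductases that fell numbered 0 at a minimum of 5 TPM, where fewer genes are tested, 3 with median-of-ratios scaling, without the rRNA-type models, with array weights and without vehicle replicates 6 and 7, 2 with quantile normalization and with median-of-ratios scaling without these 2 replicates, and 1 to 3 with each library left out. Other carbonyl and quinone reductases that rose numbered 6 with median-of-ratios scaling, 6 with quantile normalization and 5 with median-of-ratios scaling without vehicle replicates 6 and 7. Those that fell numbered 0 with no minimum, a minimum of 5 TPM or the Wilcoxon rank-sum test. They numbered 10 without the rRNA-type models and with array weights, and 8 without vehicle replicates 6 and 7. With each library left out they numbered 0 to 5. The count was 0 without vehicle replicates 1, 2, 4 or 5 or S217879 replicates 2 or 5. It was 1 without vehicle replicate 9 or S217879 replicates 3, 6, 7, 8, 9 or 10, and 5 without vehicle replicate 6. Without the rRNA-type models 64.0% of all genes were lower. Genes that were lower numbered 8023 with array weights, 7303 without vehicle replicates 6 and 7 and 5195 without vehicle replicate 6 alone. As deposited, 13401 were tested. The 10, 10, 8 and 5 of 20 that fell are thus below the share over all genes in these settings. So are the 3 of 10 other aldo-keto reductases. Glucuronate-xylulose and ascorbate genes that rose numbered 5 with median-of-ratios scaling (where 26.6% of all genes were higher), also without vehicle replicates 6 and 7. The cause of these changes was not tested.

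The log2 ratio difference of Dcxr to Akr1a1 was 0.16 without vehicle replicates 6 and 7 and 0.17 to 0.24 with each library left out, and the other 3 ratio calls held throughout. In the deposited values the correlation r was 0.88 for Nqo1 with Cbr3, 0.88 for Cbr1 with Cbr3, 0.91 for Nqo1 with Nqo2 and 0.24 for Akr1b7 with Akr1b8 in vehicle, and 0.88 for Cbr1 with Cbr3 and 0.42 for Akr1b7 with Akr1b8 in S217879. Without the 2 farthest livers r was -0.057 for Nqo1 with Cbr3 and -0.25 for Cbr1 with Cbr3 in vehicle and 0.046 for Akr1b7 with Akr1b8 in S217879, and without vehicle replicates 6 and 7 it was 0.12 for Akr1b7 with Akr1b8. No paired analysis was possible because every animal carries its own number and none is shared between the groups. Depth is unknown, so differences in genes as scarce as Akr1b7 rest on the spread between animals alone.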
